A study of Mus musculus with 6 samples.

Results

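The SLC25 family of mitochondrial carriers was followed in brown fat RNA of mice with and without UCP1. Members were all genes whose symbol starts with Slc25a, with Ucp1, Ucp2 and Ucp3 left out, and 47 such genes were found among 29072 genes with an identifier. RNA came from interscapular brown adipose tissue, the heat-producing depot between the shoulder blades, of C57BL/6J mice. The knockout group was UCP1(-/-) (3 libraries) and the other group was wildtype (3 libraries), and no treatment is named for either. The labels name no age, sex, housing temperature or targeting strategy, and they do not say that replicates are separate animals, so p-values measure the spread between these libraries, which may be technical.

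SLC25 proteins sit mostly in the inner mitochondrial membrane and exchange solutes between cytosol and matrix, among them ADP and ATP, phosphate, citrate, malate, amino acids, acylcarnitines, cofactors and iron. UCP1 itself belongs to this family by sequence, and it lets protons back into the matrix so that respiration yields heat. In brown adipocytes, carriers feed the fuel that is burned: acylcarnitines enter through SLC25A20, reducing power crosses by the malate-aspartate shuttle, and citrate leaves for fatty acid synthesis.

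Levels are RPKM, reads scaled to transcript length and library depth, so they may be compared between genes. The targeted gene stood at 375.5, 388.5 and 371.7 RPKM in knockout libraries 1, 2 and 3 and at 3096, 1714 and 3151 RPKM in wildtype libraries 1, 2 and 3. Wildtype replicate 2 was thus the lowest wildtype library for Ucp1, and no knockout library came near it. Depth worked out from the spacing of low values was 15800000 to 18000000 reads, about 32.9 reads for 1 RPKM on a transcript of 2 kb. Of 11541 genes tested with limma, 808 were higher and 86 lower in knockout. After median-of-ratios scaling the split was 515 and 137, and with equal median log2 values it was 408 and 213. The latter scaling moved the median log2 change of all genes by -0.12, from 0.08 to -0.04. The tissue label was checked against markers: adipocyte markers summed to 11000 to 11920 RPKM in knockout and 10290 to 11640 RPKM in wildtype. The 10 brown adipocyte markers, Ucp1 included, summed to 4998 to 5075 RPKM in knockout and 5857 to 8039 RPKM in wildtype, and none was at 0. Ucp1, the targeted gene, is a large part of the wildtype sums, so their gap is no measure of brown adipocyte content. Of the 10 markers, Elovl3 rose, Ucp1 and Prdm16 fell, and 7 did not pass. All 21 skeletal muscle markers were higher in knockout, with sums of 1921 to 2192 RPKM against 69.0 to 318 RPKM, and none was at 0. All 9 macrophage markers had a log2 change above 0, as did 7917 of the 11541 tested genes. Of the 9, 1 passed (Mpeg1), with sums of 64.4 to 85.7 RPKM in knockout and 39.3 to 61.0 RPKM in wildtype. With limma 7 of the 9 had an unadjusted p under 0.05, against 2724 of the 11541 tested genes. The median log2 change of the 9 was 0.41, against 0.08 for all tested genes. Of 6 endothelial markers none passed with limma and 0 had an unadjusted p under 0.05. In whole tissue, fewer cells of a type and less RNA per cell cannot be told apart.

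The family spans a wide range of levels in brown fat. By the mean of all 6 libraries, 8 members stood at 100 RPKM or more, 13 between 10 and 100, 16 between 1 and 10, and 10 under 1. The 3 highest were the citrate carrier Slc25a1 (228.5 to 429 RPKM over the 6 libraries), the acylcarnitine carrier Slc25a20 (234 to 300.5 RPKM) and the ADP/ATP carrier Slc25a4 (233.5 to 306 RPKM). These ranges overlap, so the 3 cannot be ordered beyond their spread. The family's summed level was 2169 to 2275 RPKM in knockout and 2185 to 2263 RPKM in wildtype.

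**Figure D1:**
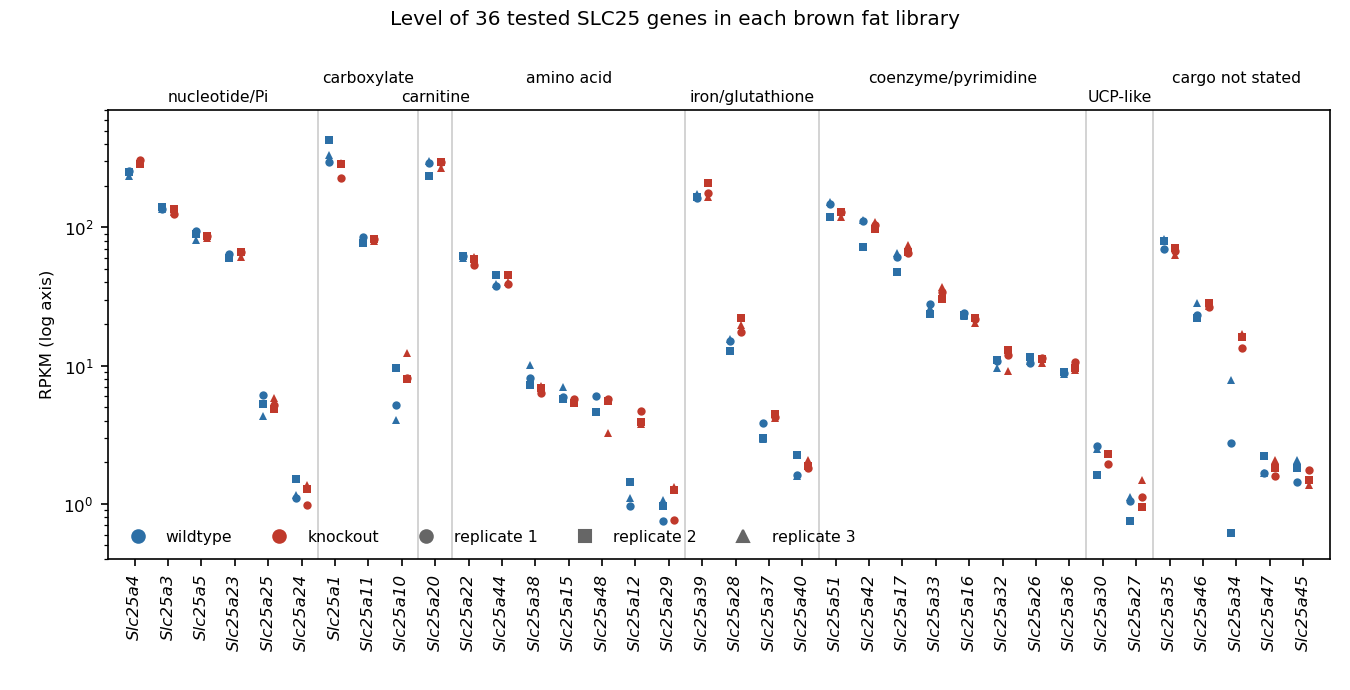
RPKM (log axis) of 36 tested SLC25 genes in each library, grouped by cargo; blue points are wildtype and red points knockout libraries, with the symbol shape giving the replicate. Most genes have overlapping blue and red points. Slc25a12 and Slc25a34 are among 8 genes with all red points above all blue ones, and 4 genes have all red points below.

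Few carriers changed. Of the 47 members, 37 averaged 1 RPKM or more in a group and were tested, and 3 passed an adjusted p of 0.05 (8.11%), all higher in knockout: Slc25a12, Slc25a34 and Slc25a28. Over the whole table the called share was 7.75%, made up of 7.00% higher and 0.745% lower, and the carriers' 8.11% was near it. No carrier was called lower by limma. In that direction 2 of the 37 had an unadjusted p under 0.05, against 425 of all 11541 tested genes. In either direction it was 8 of the 37 carriers and 2724 of all tested genes. The median log2 change of the tested carriers was 0.03, against 0.08 for all tested genes. The carriers' median turned to -0.05 after median-of-ratios scaling and to -0.09 with equal median log2 values. Values of the groups did not overlap for 12 carriers, 8 higher and 4 lower in knockout (32.4%). Over all tested genes that share was 29.4%, with 24.3% higher and 5.14% lower, so the carriers again lay near it. With 3 libraries a group, 34 carriers did not pass. The 95% interval of their log2 change lay within 1 either way for 33 and within 0.58 for 31. These changes are in log2(RPKM + 1), which understates those of low genes, so the bounds are not fold changes in RPKM.

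**Figure D2:**
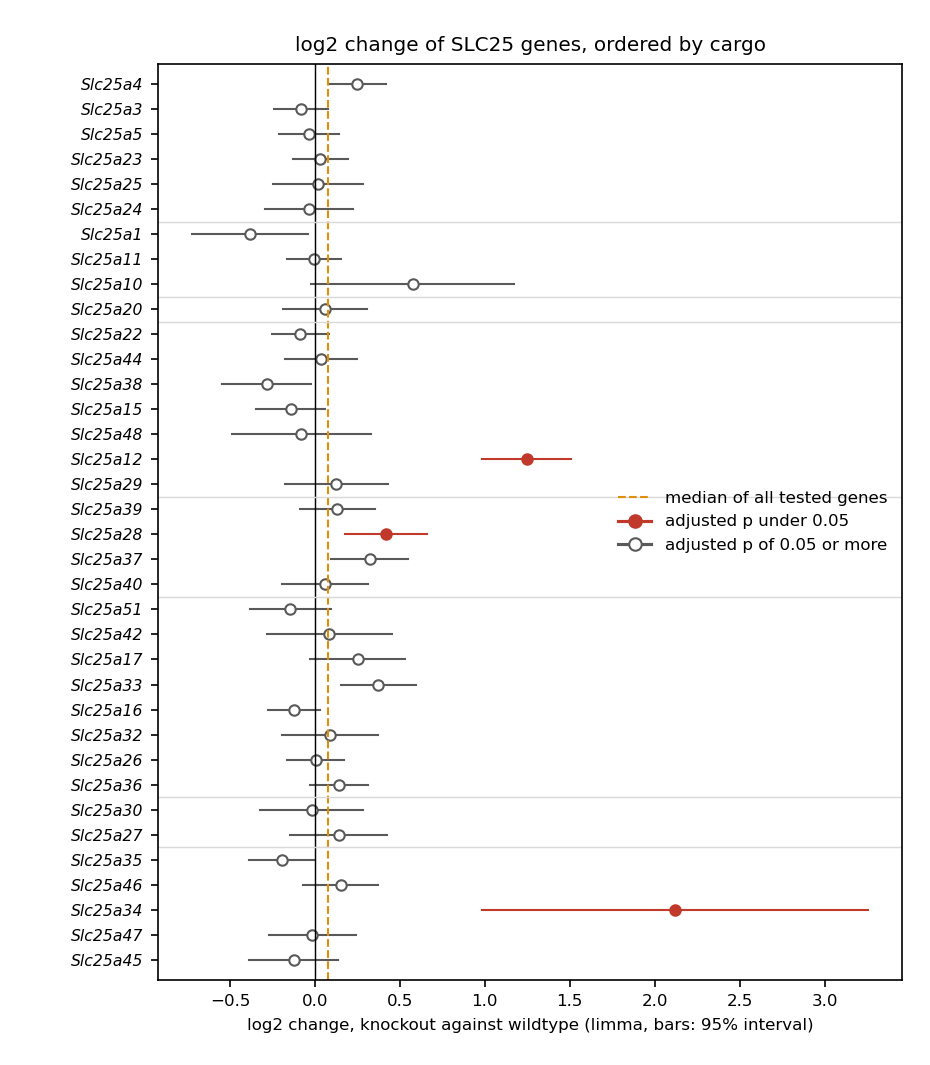
log2 change in knockout against wildtype of 36 tested SLC25 genes (points) with limma's 95% interval (bars), ordered by cargo; filled red points passed the adjusted p of 0.05 and the dashed line is the median of all tested genes. The 3 red points lie to the right of 0, with Slc25a34 having the widest interval.

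The amino acid carriers held the clearest change of the family. Slc25a12 encodes aralar, the aspartate-glutamate carrier that brings reducing power into mitochondria as part of the malate-aspartate shuttle and is known as the form of muscle and brain. It stood at 4.72, 3.90 and 3.76 RPKM in knockout replicates 1, 2 and 3 against 0.963, 1.43 and 1.09 RPKM in wildtype libraries 1, 2 and 3. Every knockout library lay well above every wildtype library, although all levels were low for this family. The means were 4.12 ± 0.519 and 1.16 ± 0.242 RPKM (SD, n = 3 each), a 3.55-fold rise and a log2 change of 1.25 (SE 0.11, limma adjusted p = 0.000639). On a 994-base Ensembl transcript of this gene, 77, 69 and 58 reads were recovered in knockout and 14, 28 and 21 in wildtype. Of its 14 transcript rows, 9 averaged 1 RPKM or more in a group, and in all 9 the knockout values lay above the wildtype ones. Some of the 9 reached that level only in knockout, with a wildtype mean as low as 0.559 RPKM. A row under that level, at 0 to 0.0514 RPKM in wildtype, had overlapping groups. Rows of 1 gene share reads, so they are no separate support. Slc25a12 passed in all 14 alternatives in which it was tested. It overlaps Gm13641 in the annotation, as Slc25a35 overlaps Rangrf and Slc25a25 overlaps Naif1. Without strand, reads from any stretch that such a pair shares cannot be told apart.

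Skeletal muscle markers moved with genotype too, and their part in the rise of Slc25a12, or of any other gene called here, was not tested. Their sum was 2192, 2163 and 1921 RPKM in the knockout libraries and 279, 318 and 69.0 RPKM in the wildtype libraries. The other aspartate-glutamate carrier, Slc25a13 (citrin, known as the form of liver), stood at 0.0203 to 0.0801 RPKM in knockout and 0.0394 to 0.0981 RPKM in wildtype and was not tested.

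The remaining genes grouped here as amino acid carriers did not pass. Slc25a22, which carries glutamate, stood at 53.8, 58.5 and 61.1 RPKM in knockout and 62.4, 61.6 and 60.2 RPKM in wildtype, with overlapping groups. Slc25a44, a carrier of branched-chain amino acids known to feed heat production in brown fat, stood at 38.9, 45.3 and 40.5 RPKM in knockout and 37.8, 44.8 and 39.0 RPKM in wildtype. Its log2 change was 0.04, with a 95% interval of -0.17 to 0.25. Slc25a38, the glycine carrier needed for haem synthesis, stood at 6.31 to 7.08 RPKM in knockout and 7.28 to 10.1 RPKM in wildtype. These groups did not overlap, but the limma adjusted p was 0.175. Of its 8 transcript rows, which share reads, 3 had knockout values below the wildtype ones. The log2 changes of the 8 rows were -0.30 to 0.19. The ornithine carrier Slc25a15 had means of 5.49 and 6.19 RPKM in knockout and wildtype. Slc25a29, a carrier of basic amino acids, had means of 1.12 and 0.928 RPKM. Slc25a48, whose place among the amino acid carriers was not checked, had means of 4.84 and 5.08 RPKM. The log2 changes of Slc25a15, Slc25a29 and Slc25a48 were -0.14 to 0.13.

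Among enzymes of the malate-aspartate shuttle and of citrate use, Got1 passed. It encodes the cytosolic aspartate aminotransferase, which uses the aspartate that SLC25A12 delivers. Got1 stood at 29.9, 27.0 and 27.0 RPKM in knockout and at 11.7, 7.45 and 14.6 RPKM in wildtype, so the groups were far apart. The log2 change was 1.29 (SE 0.19, limma adjusted p = 0.00498). Of the 10 genes of this list 1 rose and 9 did not pass, with a median log2 change of 0.02. The mitochondrial aminotransferase Got2 (means 3.41 and 3.05 RPKM in knockout and wildtype) and the malate dehydrogenases Mdh1 (335 and 343 RPKM) and Mdh2 (589 and 590 RPKM) did not pass.

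**Figure D3:**
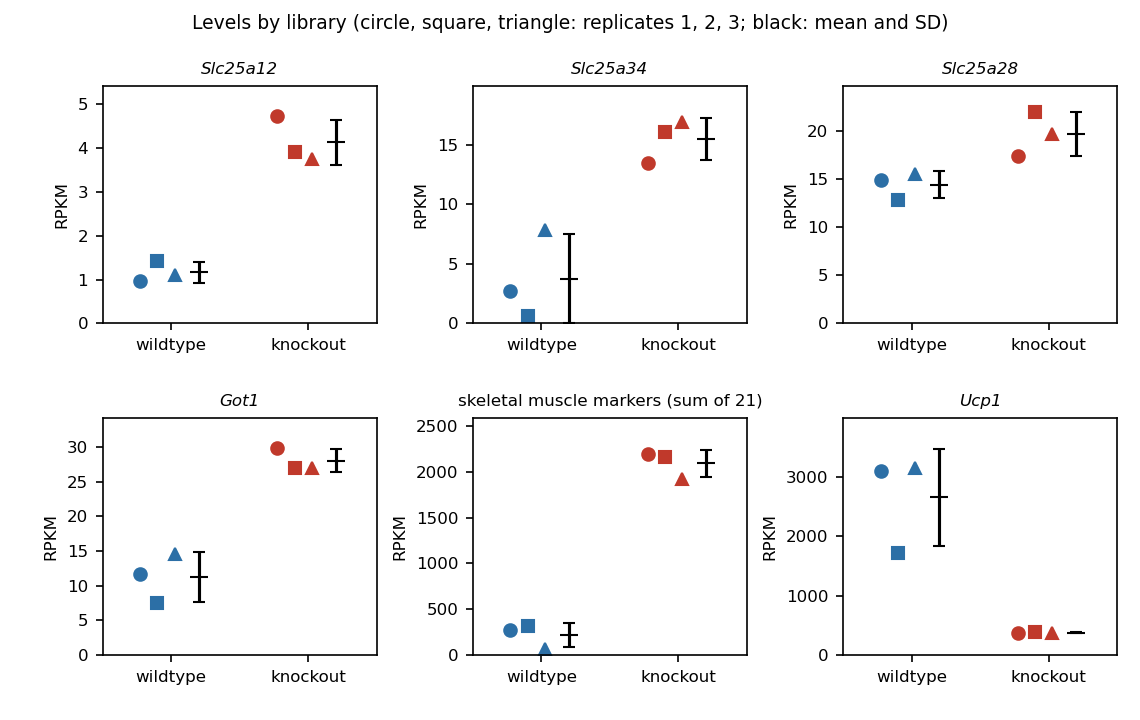
RPKM by library of the 3 carriers that passed, of Got1, of the sum of 21 skeletal muscle markers and of Ucp1; wildtype in blue, knockout in red, black bars mean ± SD (n = 3). In the panels of the 3 carriers, Got1 and the muscle markers all knockout points lie above all wildtype points, and for Ucp1 all lie below.

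Slc25a34, whose cargo is not settled, had the largest change of the family. It stood at 13.5, 16.0 and 16.9 RPKM in knockout replicates 1, 2 and 3 against 2.74, 0.620 and 7.86 RPKM in wildtype libraries 1, 2 and 3. The knockout libraries were close together and the wildtype libraries far apart, but the groups did not overlap. The means were 15.5 ± 1.76 and 3.74 ± 3.72 RPKM (SD, n = 3 each), a 4.14-fold rise. The log2 change was 2.12 (SE 0.50, limma adjusted p = 0.0383), with a 95% interval of 0.98 to 3.26. The muscle marker sums given above moved with genotype here too, and their part was not tested. The size moved with single wildtype libraries: the log2 change was 1.51 without wildtype replicate 2 and 2.74 without wildtype replicate 3, and the gene passed in both cases. Median-of-ratios scaling ended the call (limma adjusted p = 0.0529), as did equal median log2 values (0.0552), no filter (0.0942) and a pseudocount of 0.1 (0.0666). Leaving out knockout replicate 1 (0.0977), 2 (0.128) or 3 (0.108) ended it too, and so did leaving out wildtype replicate 1 (0.105).

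Of the other carriers without a stated cargo, none passed. Slc25a35 stood at 67.9, 70.5 and 63.4 RPKM in knockout and 69.8, 79.7 and 81.8 RPKM in wildtype. Slc25a46, an outer membrane protein linked to mitochondrial shape, stood at 26.5, 28.2 and 27.1 RPKM in knockout and 23.3, 22.1 and 28.3 RPKM in wildtype. In both genes the groups overlapped. Slc25a47 and Slc25a45 had means of 1.54 to 1.85 RPKM.

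Of the 4 iron and glutathione carriers 1 rose and 3 did not pass. Slc25a28, mitoferrin 2, brings iron into the matrix for haem and iron-sulfur clusters. It stood at 17.4, 21.9 and 19.7 RPKM in knockout and at 14.95, 12.8 and 15.5 RPKM in wildtype. All knockout libraries lay above all wildtype libraries, by a small margin. The means were 19.7 ± 2.28 and 14.4 ± 1.41 RPKM (SD, n = 3 each), 1.36-fold apart, with a log2 change of 0.42 (SE 0.10, limma adjusted p = 0.0478). The call was lost in each of the 15 alternatives, where the adjusted p was 0.0505 to 0.166, while the direction held in all 15. The 4 transcript rows of Slc25a28, which share reads, each had knockout values above the wildtype ones.

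Slc25a37, mitoferrin 1, known as the form of red cell precursors, stood at 4.23, 4.49 and 4.14 RPKM in knockout and 3.82, 2.97 and 2.94 RPKM in wildtype. The groups did not overlap, but the gene did not pass (log2 change 0.32, limma adjusted p = 0.0922). It passed in 1 of the 14 alternatives in which it was tested, without wildtype replicate 1 (limma adjusted p = 0.0415). Over the 14 the adjusted p reached 0.255. Of its 7 transcript rows averaging 1 RPKM or more in a group, which share reads, 3 had knockout values above the wildtype ones. Erythroid markers summed to 334 to 465 RPKM in knockout and 317 to 769 RPKM in wildtype, with Slc4a1 and Epb42 under 1 RPKM on average. The ratio of Slc25a28 to Slc25a37 overlapped between the groups, at 4.11 to 4.88 in knockout and 3.91 to 5.27 in wildtype.

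Genes that use the imported iron were examined beside the carriers. Of 8 such genes 7 had a log2 change above 0, none passed with limma, 0 had an unadjusted p under 0.05, and the median log2 change was 0.12. Over all tested genes, 7917 of 11541 had a log2 change above 0. The member with the smallest p was Iscu, the scaffold for iron-sulfur clusters, at 38.0, 40.7 and 38.0 RPKM in knockout and 36.4, 30.8 and 35.9 RPKM in wildtype. The glutathione carrier Slc25a39 stood at 177, 209 and 166 RPKM in knockout and 162, 164 and 174 RPKM in wildtype, with overlapping groups. Its relative Slc25a40 had means of 1.93 and 1.83 RPKM.

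The promoters of the 3 carriers that passed are shown to let a reader compare them, 250 bases before to 50 after the annotated start, from RefSeq on GRCm38.p6. The deposited table's own build was not needed for these windows, since no coordinate was taken from it. They lie at chr2:71367706-71368005 (Slc25a12), chr4:141623785-141624084 (Slc25a34) and chr19:43674832-43675131 (Slc25a28), all on the minus strand. Capitals mark matches to 5 motifs searched on both strands: the myogenic E-box CAGCTG, the MEF2 box (CTA, any 4 bases, TAG), the ATF4 composite element TGATGNAA, the NRF1 box (GCGC, any 2 bases, GCGC) and the ERR half-site AAGGTCA.
Slc25a12: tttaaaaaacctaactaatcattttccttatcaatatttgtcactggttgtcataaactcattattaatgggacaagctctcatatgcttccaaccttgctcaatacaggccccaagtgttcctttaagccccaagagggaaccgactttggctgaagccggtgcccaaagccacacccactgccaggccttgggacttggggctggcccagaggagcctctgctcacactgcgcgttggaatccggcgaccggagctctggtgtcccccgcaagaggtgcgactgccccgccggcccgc
Slc25a34: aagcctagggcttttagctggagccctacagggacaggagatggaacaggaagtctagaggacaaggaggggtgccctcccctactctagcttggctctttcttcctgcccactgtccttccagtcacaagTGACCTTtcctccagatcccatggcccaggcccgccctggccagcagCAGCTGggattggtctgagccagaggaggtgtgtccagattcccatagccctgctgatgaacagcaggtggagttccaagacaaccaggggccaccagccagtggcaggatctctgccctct
Slc25a28: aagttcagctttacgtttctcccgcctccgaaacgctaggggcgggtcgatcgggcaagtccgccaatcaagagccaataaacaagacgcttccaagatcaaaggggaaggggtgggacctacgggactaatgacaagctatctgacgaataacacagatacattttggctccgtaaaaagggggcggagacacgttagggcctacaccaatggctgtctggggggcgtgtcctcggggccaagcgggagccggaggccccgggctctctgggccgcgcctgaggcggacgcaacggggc

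Matches were found in the Slc25a34 window only, among these 3. It holds CAGCTG from 72 to 67 bases and TGACCTT, the ERR half-site on the other strand, from 119 to 113 bases before the start. These matches are a description of letters and show no binding. CAGCTG is in 16.3% and AAGGTCA in 4.72% of all 32851 promoter windows. A promoter was matched for 36 of the 47 carriers (46 windows). Of these 46 windows 5 hold the E-box (10.9%), 2 the MEF2 box (4.35%, against 3.69% of all), 3 the NRF1 box (6.52%, against 6.23%), 1 the ERR half-site (2.17%) and 0 the ATF4 element (3.97% of all).

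No carrier of adenine nucleotides and phosphate passed (6 tested with limma, 1 with an unadjusted p under 0.05). Slc25a4 encodes ANT1, the ADP/ATP carrier typical of muscle and heart, which trades matrix ATP for cytosolic ADP and can also leak protons. It stood at 306, 286 and 288 RPKM in knockout and 254, 253 and 233.5 RPKM in wildtype. The groups did not overlap, with means of 293 ± 10.9 and 247 ± 11.4 RPKM (SD, n = 3 each). The log2 change was 0.25 (limma adjusted p = 0.0842). All 4 transcript rows of this gene, which share reads, had knockout values above wildtype values. The part of the muscle markers in this difference was not tested.

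Slc25a5 encodes ANT2, a widely expressed ADP/ATP carrier, and its near-identical copies in the genome make its level uncertain. It stood at 86.3, 87.2 and 84.2 RPKM in knockout and 93.9, 89.9 and 80.5 RPKM in wildtype. The ratio of Slc25a4 to Slc25a5 was 3.55, 3.28 and 3.42 in knockout and 2.70, 2.81 and 2.90 in wildtype, so it was higher in every knockout library. This ratio was chosen after its parts were seen and was not tested. The phosphate carrier Slc25a3, which supplies ATP synthase, stood at 124, 135 and 130 RPKM in knockout and 135, 139 and 136 RPKM in wildtype. The wildtype values lay just above, with a log2 change of -0.08 and a 95% interval of -0.24 to 0.08.

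The calcium-regulated ATP-Mg/phosphate carriers had overlapping groups. Slc25a23 stood at 65.7, 65.98 and 60.7 RPKM in knockout and 64.1, 60.3 and 63.5 RPKM in wildtype. Slc25a25 had means of 5.27 and 5.23 RPKM and Slc25a24 of 1.20 and 1.26 RPKM in knockout and wildtype. Their log2 changes lay between -0.04 and 0.03.

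The carboxylate carriers did not pass either (3 tested with limma, 1 with an unadjusted p under 0.05). Slc25a1, which exports citrate for fatty acid synthesis, stood at 228.5, 288 and 290 RPKM in knockout and 296, 429 and 334 RPKM in wildtype. In the kept row each wildtype library was above each knockout library, with means of 269 ± 34.7 and 353 ± 68.6 RPKM (SD, n = 3 each). Of the 8 transcript rows of this gene, which share reads, only 2 had groups that did not overlap. The log2 change was -0.38 (limma adjusted p = 0.164). Wildtype replicate 2 was the highest library, as it was for 2 enzymes that use or follow exported citrate. In wildtype libraries 1, 2 and 3, Acly, which splits citrate in the cytosol, was at 304, 778 and 299 RPKM, and Me1, the cytosolic malic enzyme, at 99.0, 269.5 and 117 RPKM. In knockout, Acly stood at 239 to 419 RPKM and Me1 at 85.1 to 117 RPKM, which overlaps wildtype.

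Slc25a10, the dicarboxylate carrier, stood at 8.13, 8.06 and 12.3 RPKM in knockout and 5.22, 9.58 and 4.06 RPKM in wildtype. Wildtype replicate 2 was again the highest of its group and overlapped the knockout libraries. With all libraries the log2 change was 0.58 (limma adjusted p = 0.226), and without that library it was 0.88 (0.0239). Slc25a11, the oxoglutarate-malate carrier and the other arm of the malate-aspartate shuttle, stood at 82.3, 81.8 and 79.6 RPKM in knockout and 85.4, 77.3 and 82.3 RPKM in wildtype. Its log2 change was -0.01 with a 95% interval of -0.17 to 0.15. Slc25a11 may share reads with the overlapping gene Rnf167 if strand was not used.

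**Figure D4:**
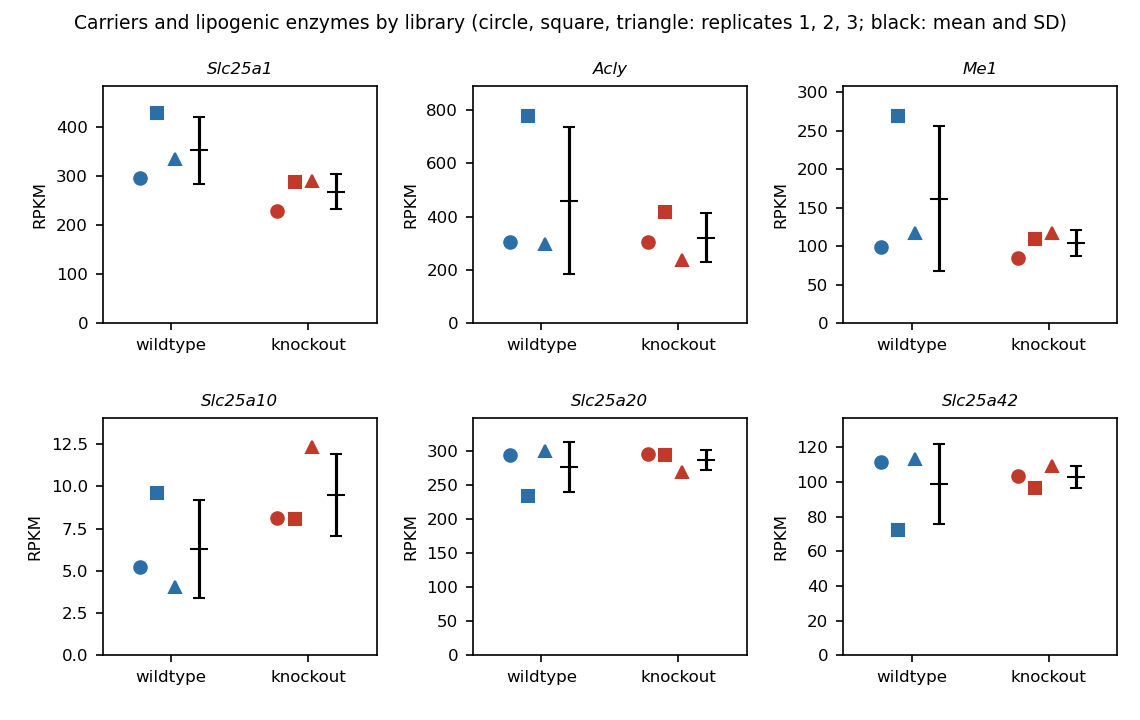
RPKM by library of 4 carriers and of the enzymes Acly and Me1, chosen after their values were seen. Wildtype is in blue and knockout in red, and black bars are mean ± SD (n = 3). Among wildtype libraries, replicate 2 (square) is highest for Slc25a1, Acly, Me1 and Slc25a10 and lowest for Slc25a20 and Slc25a42.

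Slc25a20, the acylcarnitine carrier through which fatty acids reach the oxidation enzymes, stood at 295, 295 and 269 RPKM in knockout and 294, 234 and 300.5 RPKM in wildtype. Apart from the low wildtype replicate 2, the libraries of both groups lay between 269 and 300.5 RPKM. The log2 change was 0.06, with a 95% interval of -0.19 to 0.31. Of 4 carnitine acyltransferases, Cpt1a, which loads fatty acids onto carnitine, rose from 2.97 ± 0.282 to 4.61 ± 0.265 RPKM (SD, n = 3 each; limma adjusted p = 0.0103). That call was lost without knockout replicate 2 (0.0549). The abundant form of muscle and brown fat, Cpt1b, (means 296 and 273 RPKM in knockout and wildtype), Cpt2 (193 and 223.5 RPKM) and Crat (206 and 212 RPKM) did not pass.

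None of the 9 tested coenzyme and pyrimidine nucleotide carriers passed limma's test, and 1 had an unadjusted p under 0.05. This was Slc25a33, a pyrimidine nucleotide carrier, at 34.1, 30.4 and 37.0 RPKM in knockout and 27.95, 23.6 and 26.1 RPKM in wildtype. Its groups did not overlap, and its log2 change of 0.37 (SE 0.10) came with a limma adjusted p = 0.0523. The related Slc25a36 had means of 9.82 and 8.80 RPKM in knockout and wildtype, also without overlap. The peroxisomal carrier Slc25a17 stood at 65.7, 66.2 and 74.9 RPKM in knockout and 61.3, 47.5 and 65.6 RPKM in wildtype. The groups touched without overlap, and the log2 change was 0.25 (limma adjusted p = 0.254).

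Other cofactor carriers did not pass. Slc25a51, the NAD carrier, stood at 129, 130 and 118 RPKM in knockout and 147, 119 and 153 RPKM in wildtype. Its groups overlapped, and its log2 change was -0.15.

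Slc25a42, which carries coenzyme A, stood at 103, 96.5 and 109 RPKM in knockout and 111, 72.4 and 113 RPKM in wildtype, where replicate 2 was low. Slc25a16 stood at 21.8, 21.99 and 20.5 RPKM in knockout and 24.1, 23.1 and 23.0 RPKM in wildtype, a small gap without overlap (limma adjusted p = 0.313). The folate-related carrier Slc25a32 stood at 12.0, 12.95 and 9.10 RPKM in knockout and 10.8, 11.1 and 9.67 RPKM in wildtype. Slc25a26, which brings in S-adenosylmethionine, stood at 11.4, 11.1 and 10.4 RPKM in knockout and 10.5, 11.4 and 10.8 RPKM in wildtype. These last 2 overlapped between groups, and the reads of Slc25a26 may include those of Lrig1, which overlaps it.

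The uncoupling-protein-like carriers were near the lower limit of the test. Slc25a30 had means of 2.17 and 2.24 RPKM and Slc25a27 of 1.18 and 0.975 RPKM in knockout and wildtype. Neither passed limma's test, and 0 of the 2 had an unadjusted p under 0.05. Slc25a14 stood at 0.535 to 1.04 RPKM in knockout and 0.524 to 0.852 RPKM in wildtype and was not tested.

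Carrier proteins reach the inner membrane through the TIM22 import route, and its genes did not pass. Of 13 members none passed with limma, 2 had an unadjusted p under 0.05, and the median log2 change was -0.03. Timm22, the channel subunit, stood at 8.99, 9.05 and 8.83 RPKM in knockout and 10.3, 10.2 and 10.3 RPKM in wildtype. The wildtype values were all higher, with a log2 change of -0.18 and a limma adjusted p = 0.149, which was 0.038 with equal median log2 values. Among 21 other transporters of the mitochondrial membranes, 1 rose and 20 did not pass, with a median log2 change of 0.02. This was Slc8b1, the mitochondrial sodium-calcium exchanger, which stood at 4.63, 4.49 and 4.72 RPKM in knockout and 3.28, 2.96 and 2.62 RPKM in wildtype (log2 change 0.51, limma adjusted p = 0.00988). The pyruvate carrier subunits Mpc1 (means 42.4 and 47.3 RPKM in knockout and wildtype) and Mpc2 (379 and 405 RPKM) did not pass.

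**Figure D5:**
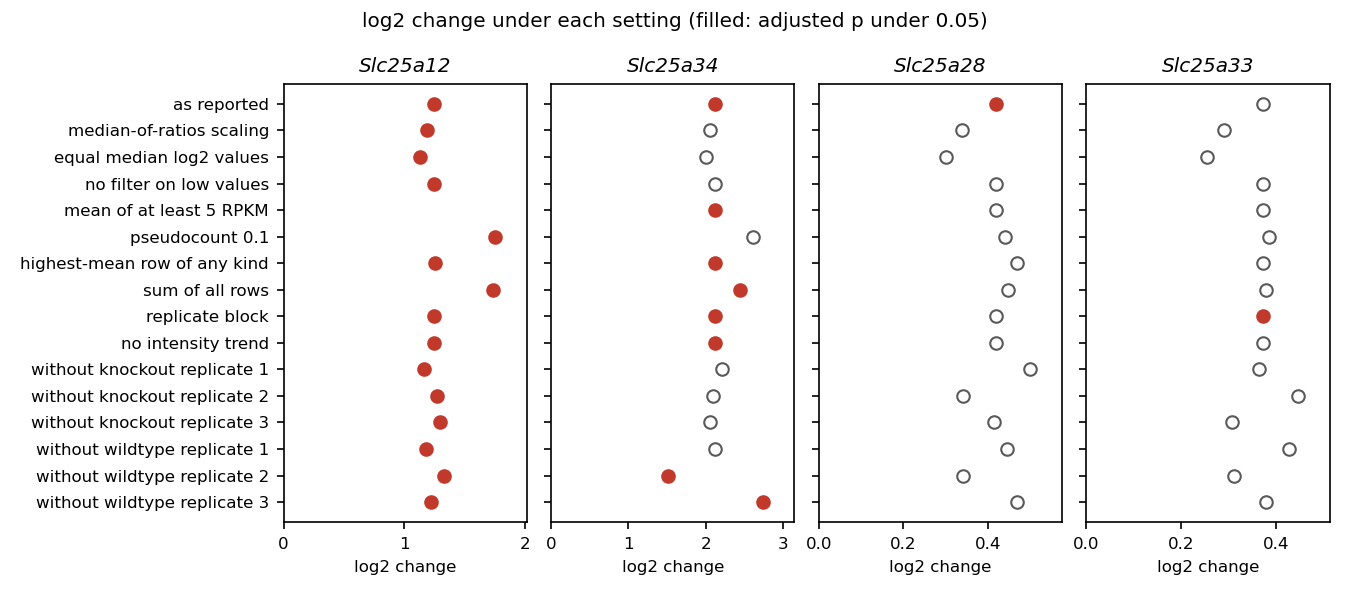
log2 change (knockout against wildtype) of the 3 carriers that passed and of Slc25a33 as reported and under each alternative; filled red points have an adjusted p under 0.05. Slc25a12 is filled wherever it was tested, Slc25a34 in 7 of 15 alternatives, Slc25a28 in 0 of 15 and Slc25a33 in 1 of 15.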

How the data were processed

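The authors deposited 1 table of RPKM for 168326 transcript rows in 6 libraries, with decimal commas. The unit was worked out from the deposited values: low products of value and Ensembl transcript length were whole multiples of 1 step per library for 95.8% to 96.2% of products, within 0.1 reads. Library preparation used Illumina TruSeq RNA reagents, per the labels' protocols, with CASAVA and bcl2fastq named, per the submitters' processing notes. Aligner, build, annotation and use of strand were not given in the sources used here. Rows without a gene identifier (23170, or 13.8%) were left out. The values of 1 tested carrier and 1 marker are not reported here by name.

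For each gene 1 row was kept: RefSeq before Ensembl before others, then the highest mean over the 6 libraries. For all 47 carriers this was a RefSeq row. Values were transformed to log2(RPKM + 1), which understates changes of low genes, and genes averaging 1 RPKM or more in a group were kept. limma 3.58.1 (R 4.3.3) with an intensity trend was fitted to all 6 libraries with genotype as the only term. P-values are two-sided and adjusted by Benjamini-Hochberg over all 11541 tested genes (threshold 0.05). An exact permutation test of 3 against 3 libraries cannot go below p = 0.1 and was not used. The script was tested on simulated data. Any carrier could be named, with values in every library for those called or averaging 10 RPKM or more in a group. Called partner genes were named, or the 1 with the smallest p where none was called. Other genes named, such as Acly, Me1 and Got2, were chosen after their values were seen. Members and lists were chosen with earlier results of these data known. Promoter windows came from RefSeq (GRCm38.p6), matched by gene identifier. Alternatives changed scaling, filter, pseudocount, row choice, model and libraries.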

Additional observations from a re-analysis of the deposited data

How the results depend on the processing

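The number of carriers called higher was 3 as reported. It was 1, Slc25a12, after median-of-ratios scaling, with equal median log2 values, with no filter and with a pseudocount of 0.1. With a mean of at least 5 RPKM it was also 1, but Slc25a12 was not tested there and the gene was Slc25a34 (limma adjusted p = 0.0488). The number was 1 to 3 when each library was left out in turn. No carrier was called lower in any of the 15 alternatives. The number of all genes called fell from 894 to 452 with a mean of at least 5 RPKM, where fewer genes were tested (6945), and was 457 to 850 when each library was left out. It was 477 without knockout replicate 1 and 457 without knockout replicate 2. The number of partner genes called was 3 as reported, 1 with a mean of at least 5 RPKM, which removes Slc8b1 and Cpt1a from the test, and 2 to 4 when each library was left out. Apart from that filter, the cause of these changes was not tested. The carriers' median log2 change was -0.09 to 0.05 over all alternatives. Pairing of libraries by replicate number was neither shown nor excluded by the data. Deviations of same-numbered libraries from their group means correlated at 0.089, 0.038 and -0.018 across genes. Knockout replicate 1 with wildtype replicate 1 was the highest of all pairs, while knockout replicate 2 correlated best with wildtype replicate 3 (0.070). With a replicate block, 3 carriers were higher, with Slc25a33 (adjusted p = 0.047) in and Slc25a28 (0.0847) out, and 778 genes were called. The 10 untested carriers were left out because their kept rows averaged under 1 RPKM in both groups. None of these rows exceeded 1.04 RPKM in any library, where depth is a limit too. With no filter 46 carriers were tested.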

Other observations

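Some carriers known from other tissues were at or near 0 in these brown fat libraries. Slc25a31, the ADP/ATP carrier of testis, was listed at 0 to 0.0875 RPKM, Slc25a41 at 0 to 0.0517 RPKM, Slc25a21, an oxodicarboxylate carrier, at 0 to 0.0585 RPKM and Slc25a43 at 0 to 0.0562 RPKM. Slc25a54 was listed at 0 in all 6 libraries. Slc25a18, a second glutamate carrier, was at 0.243 to 0.463 RPKM in knockout and 0 to 0.180 RPKM in wildtype, and Slc25a2, a second ornithine carrier, at 0.186 to 0.412 and 0.0915 to 0.183 RPKM. Both lie under the filter and were not tested.

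The 47 carriers have 359 transcript rows in the table, 2 to 21 each, and rows of 1 gene share reads. For Slc25a53 the kept row was at 0.193 to 0.437 RPKM, while 4 of its 14 rows reached a mean of 1 RPKM in a group. Zcchc18 overlaps this gene. For Slc25a36, 9 of the 15 rows averaging 1 RPKM or more in a group had knockout values above wildtype values, and for Slc25a3, 6 of 13 had knockout values below them. Neither gene passed limma's test.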
